A study of Mus musculus with 39 samples.

Results

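Granule cells are the small excitatory neurons of the cerebellar cortex. Here 5 translating ribosome affinity purification (TRAP) libraries from postnatal day 12 (P12) were set against 5 from postnatal day 7 (P7), 10 of the 39 samples of the series, chosen by age and mouse line from the labels and without regard to any measured value. All 10 came from mice of the strain C57Bl/6J that carry the transgene Tg(NeuroD1-Egfp-L10a), in which the NeuroD1 promoter drives ribosomal protein L10a fused to EGFP. Lysates of the whole cerebellum were incubated with beads bearing antibodies to GFP, and the polyadenylated RNA held on the tagged ribosomes was sequenced as 75-bp single-end reads. Both ages share the transgene, the strain and the protocol, and there was no untagged mouse among the samples used here. The labels do not say whether a library is 1 mouse or a pool, nor that replicates came from separate litters, so p-values measure the spread between libraries. That spread was estimated from all 19 TRAP libraries of the series. These include 5 libraries of the same line at P21 and 4 of another line, Math1-bacTRAP, at P7. A single input library of total cerebellar RNA exists for each age and gives values without a test.

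As background, granule cell progenitors divide in the external granule layer on the surface of the cerebellum, driven by Sonic hedgehog from Purkinje cells. After their last division they extend parallel fibres, migrate inward past the Purkinje cells, and form synapses with mossy fibres in the internal granule layer. In the mouse this proceeds through the first weeks after birth, so the age step examined here lies within the period in which progenitors run out and young neurons wire up. The question was which genes differ in ribosome-bound RNA between P7 and P12.

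Levels are given as CPM, the counts of a gene relative to the total of its library, scaled by the TMM factors of edgeR. Fold changes are P12 over P7, given as log2 ± standard error (SE), and a gene is said to have risen or fallen when the edgeR quasi-likelihood test gave a Benjamini-Hochberg adjusted p under 0.05. Total counts were 22.5 to 38.5 M in the P12 libraries and 23.9 to 38.0 M in the P7 libraries. The first principal component held 84.8% of the variance and put the P12 libraries at -46.4 to -37.4 and the P7 libraries at 38.6 to 50.5, with no library between the ages. Replicates of an age had log2 correlations of 0.9916 to 0.9977 and differed by 4.98 to 31.5 times the counting noise (chi-square per gene), so no library was a copy of another. Within the ages, P7 replicate 4 was the lowest P7 library for 540 of the 1390 genes that rose at least 2-fold (38.8%), and P12 replicate 3 was the highest P12 library for 714 of the 1526 genes that fell at least 2-fold (46.8%).

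The change was broad and mostly small. Of 14759 genes tested 4647 were higher at P12 (31.5%) and 5421 were lower (36.7%), together 10068 or 68.2%. The 2 groups of libraries did not overlap for 8675 genes (58.8%), 8509 of them called. Among the genes called, 71.0% changed by less than 2-fold and 4285 by less than 1.5-fold. A change of at least 2-fold was found for 1390 genes higher at P12 (9.42%) and 1526 lower (10.3%), and of at least 4-fold for 283 higher (1.92%) and 363 lower (2.46%). The excess of falls at 2-fold turned into an excess of rises under 6 of 7 other settings (and in none of 10 fits without a single library), such as 1354 rises and 1342 falls when only the 10 libraries were fitted, so neither direction is called the more frequent there. At 8-fold and beyond the rises were the more frequent, 68 against 38, as under all 7. The median log2 fold change over all genes tested was -0.04 and the median size 0.46, and the counts for each gene group below are to be read against these shares. In bulk RNA of this kind fewer cells of a type and less RNA per cell cannot be told apart.

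**Figure D1:**
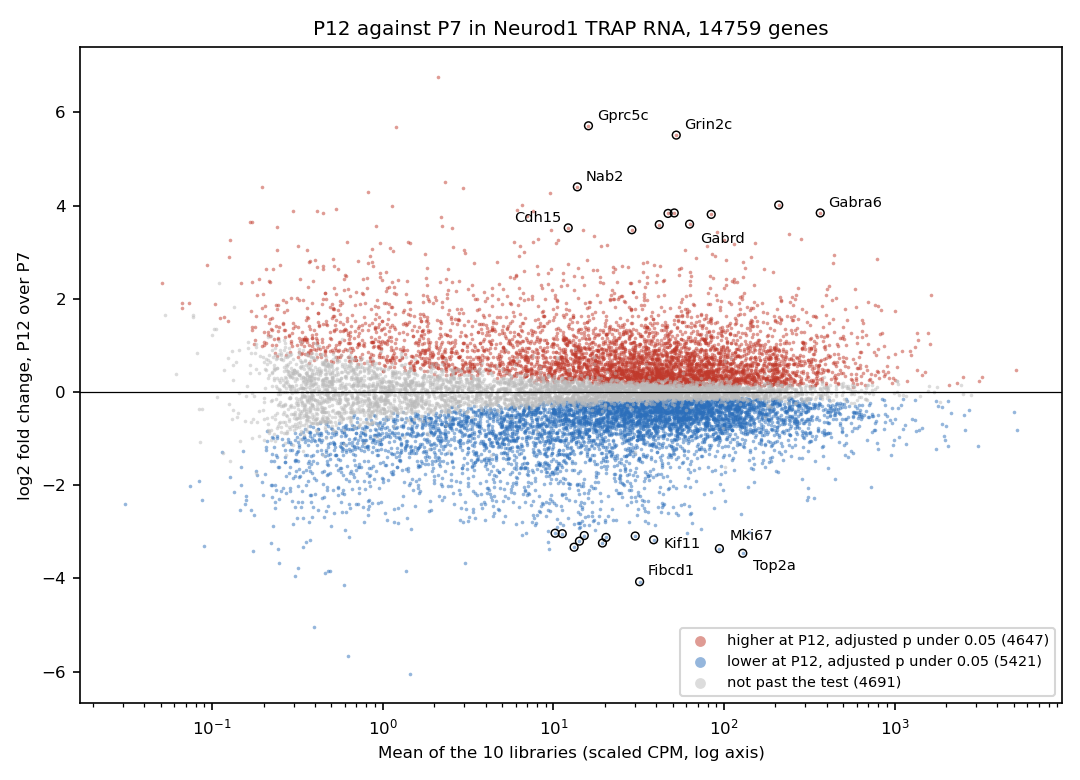
Log2 fold change of P12 over P7 (vertical) against the mean scaled CPM of the 10 libraries (horizontal, log axis) for each gene tested. Red points rose, blue points fell and grey points did not pass the test. Circles mark the 12 largest rises and 12 largest falls that averaged 10 CPM or more, from Gprc5c at 5.71 to Fibcd1 at -4.07.

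The pull-down held the RNA of granule cells at both ages. Neurod1, the gene of the transcription factor whose promoter drives the tag, stood at 2377, 2407, 2477, 2546 and 2532 CPM in the P12 libraries, against 2773, 2564, 2574, 2388 and 2509 CPM in the P7 libraries. The ranges overlapped, and the 95% interval of the log2 fold change ran from -0.22 to 0.11. All 10 granule cell markers were detected, and their summed level was 10061 to 10981 CPM at P12 and 7025 to 7795 CPM at P7, with 5 of 10 higher and 3 lower. Atoh1, the transcription factor that defines progenitors, was at 3.34, 4.42, 9.53, 5.98 and 4.37 CPM at P12 and at 21.7, 19.9, 19.1, 25.3 and 24.5 CPM at P7. Its fall was 3.93-fold (log2 -1.98 ± 0.25, adjusted p = 7.8e-07), with no overlap between the ages. It was detected in every library of both ages.

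RNA of other cell types was also present, and for some of them it moved with age. All 8 Purkinje cell markers rose, and their summed level was 791 to 939 CPM at P12 and 245 to 340 CPM at P7. The group means were 20.3% of the input sum at P12 and 11.7% at P7. All 8 markers of myelinating oligodendrocytes rose as well, with sums of 547 to 761 CPM at P12 and 183 to 264 CPM at P7. Mag, an adhesion protein of the myelin sheath, rose by 2.69 ± 0.19. Among 6 markers of oligodendrocyte precursors 2 fell and 1 rose, and the sum was 56.0 to 72.2 CPM at P12 and 135 to 177 CPM at P7. Most of this difference was that of Pdgfra, the PDGF receptor of these precursors (log2 -2.61 ± 0.10). Pdgfra was at 17.6 CPM at P12 and 108 CPM at P7 in the pull-down, against 33.3 and 114 CPM in the inputs. The group means of the whole list were 20.6% of the input sum at P12 and 39.7% at P7. Whether the fall of Pdgfra lies in precursors was not tested. Markers of astrocytes and Bergmann glia went both ways, 6 of 11 higher and 3 lower, with overlapping sums of 401 to 489 CPM at P12 and 403 to 623 CPM at P7. Of 8 interneuron markers 3 rose and 1 fell (sums 65.0 to 78.3 CPM at P12, 38.8 to 66.5 CPM at P7). The interneuron precursor factor Pax2 was the member that fell, by 1.71 on the log2 scale.

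Vascular and meningeal markers had 5 of 12 members higher and 0 lower (38.9 to 49.8 CPM at P12, 22.9 to 39.6 CPM at P7). Among 9 microglial markers tested, 1 was higher, a call lost without any of 5 single libraries (13.7 to 19 CPM summed at P12, 7.44 to 21.4 CPM at P7). Erythrocyte genes did not pass in either direction (0 of 3, 13.9 to 38.3 CPM at P12 and 12.4 to 36.6 CPM at P7). The microglial group means were 22.5% of the input sum at P12 and 11.9% at P7, and the vascular and meningeal ones 18.2% and 11.5%. For astrocytes and Bergmann glia they were 19.6% and 17.2%. Interneuron markers (14.6% and 16.2%) and myelinating oligodendrocyte markers (15.2% and 15.7%) were slightly lower at P12 on this measure. Of 5 unipolar brush cell markers 1 rose and 1 fell, and their sum of 444 to 742 CPM at P12 and 124 to 238 CPM at P7 consisted mostly of Calb2, a calcium buffer that granule cells make as well. Eomes, the defining factor of unipolar brush cells, was at 80 ± 10.8 CPM at P12 and 79.1 ± 16.6 CPM at P7 (SD, n = 5). No marker tested was at 0 in all 10 libraries. The part of these cells in the results below was not tested.

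**Figure D2:**
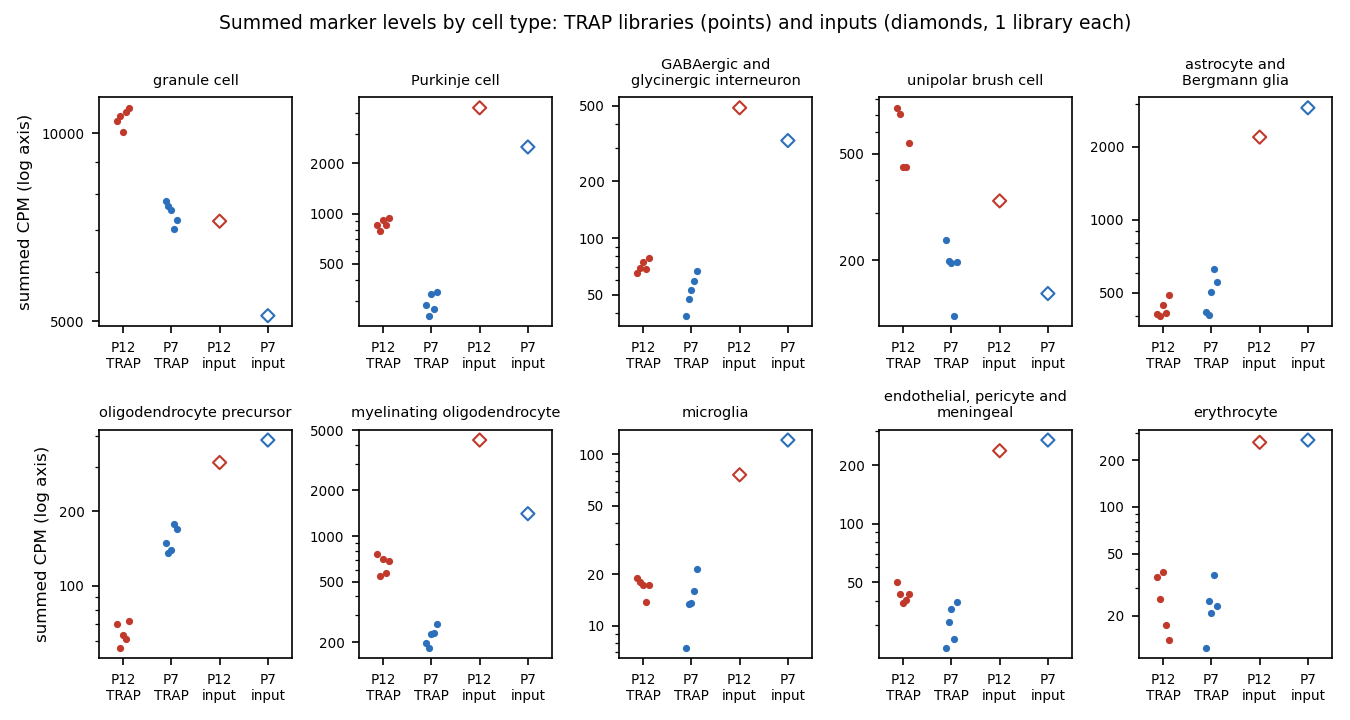
Summed scaled CPM (log axes) of 10 marker lists in the P12 and P7 TRAP libraries (filled points, 1 per library) and in the input of each age (diamonds, 1 library each, scaled by library size). Purkinje cell and myelinating oligodendrocyte sums are higher in every P12 library than in any P7 library. Oligodendrocyte precursor sums are lower in every P12 library, mostly through Pdgfra alone.

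The largest loss was that of the machinery of cell division. All 30 members of a list of mitosis and kinetochore genes fell, each at least 2-fold, and the list's median was -2.63 on the log2 scale. Top2a, the topoisomerase that untangles chromosomes before they part, was at 19.8, 19.3, 23.5, 23.1 and 21 CPM in the P12 libraries and at 305, 172, 234, 255 and 215 CPM in the P7 libraries. Mki67, the gene of the proliferation antigen Ki-67, was at 14.7, 13.7, 18.7, 19.2 and 16.8 CPM at P12, against 211, 120, 172, 171 and 182 CPM at P7. In both genes the lowest P7 library lay several times above the highest P12 library. Their log2 fold changes were -3.46 ± 0.12 and -3.36 ± 0.15 (adjusted p = 3.1e-15 and 5.3e-14). Knl1, a kinetochore scaffold, fell 10.1-fold (2.38 ± 0.23 CPM at P12, 24.1 ± 3.72 CPM at P7).

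Mitotic genes also filled most of the places among the 12 largest falls. They were the motor proteins Kif4, Kif11 and Kif15, the spindle proteins Aspm and Dlgap5, the kinetochore genes Knl1, Cenpf and Kntc1, and Top2a and Mki67, with log2 fold changes between -3.46 and -3.03. Cdk6, a kinase that works with D-type cyclins in G1 phase, fell by 3.20 ± 0.17. Fibcd1, a membrane receptor with a fibrinogen-like domain and no listed part in division, had the largest fall among these genes. It was at 4.75, 3.55, 2.78, 3.90 and 3.06 CPM at P12, against 48.3, 70.7, 54.2, 72.3 and 56.4 CPM at P7. The groups were far apart, 16.8-fold (log2 -4.07 ± 0.21, adjusted p = 5.4e-13), and the input had 2.44 CPM at P12 and 33.3 CPM at P7.

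Promoters of the mitotic genes are shown because many of them share a short element. The cell cycle genes homology region (CHR) has the core TTTGAA and is bound in dividing and resting cells by complexes that switch mitotic genes. RefSeq promoters of the mouse assembly GRCm38.p6, from 250 bases before to 50 bases after the transcription start, were given for 25 of the 30 list members, and 19 of these (76.0%) held TTTGAA on either strand, against 11.7% of the 11646 tested genes with a promoter and 18.1% of all 27025 genes in the table. The first promoter listed for a gene was used. The promoters of Ccnb1, Bub1, Mad2l1, Nuf2, Cenpe and Birc5 did not hold these letters. A match is a string of letters and not a measured site. Below, capitals mark the match, TTTGAA or its reverse complement TTCAAA, and each stretch is read 5′ to 3′ on the gene's strand and ends at or before the start of transcription.
Top2a, chr11:99024190-99024239, minus strand: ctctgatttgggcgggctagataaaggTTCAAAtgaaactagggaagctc
Mki67, chr7:135716445-135716504, minus strand: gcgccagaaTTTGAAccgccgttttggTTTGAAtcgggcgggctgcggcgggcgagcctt
Kif11, chr19:37376336-37376381, plus strand: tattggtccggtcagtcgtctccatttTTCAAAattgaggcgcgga
Ect2, chr3:27153960-27154019, minus strand: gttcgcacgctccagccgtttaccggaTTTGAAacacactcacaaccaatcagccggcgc
Ccnb2, chr9:70421689-70421748, minus strand: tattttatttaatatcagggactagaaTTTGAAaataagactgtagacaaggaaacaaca
Cdk1, chr10:69352913-69352954, minus strand: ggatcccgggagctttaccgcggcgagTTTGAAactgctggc

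Each of these promoters but that of Kif11 held a second match, which lies outside the stretch shown except in Mki67. The match nearest before the listed start began 15 bases from it in Cdk1, 19 in Kif11, 23 in Top2a, 98 in Mki67, 114 in Ect2 and 167 in Ccnb2. The starts listed for Top2a and Mki67 lie inside the annotated spans of these genes, which reach positions 99024199 and 135716450. Ect2, a regulator of the cleavage furrow, fell 6.98-fold, Ccnb2, a mitotic cyclin, 6.19-fold and Cdk1, its kinase partner, 5.34-fold. The 6 members without the letters fell as well.

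DNA replication genes fell as a block. All 34 members fell, 31 of them at least 2-fold, with a median of -1.77. Mcm10, a replication factor, stood at 2.66, 3.12, 4.14, 3.69 and 3.58 CPM at P12 and at 25, 22.1, 23.5, 27.7 and 24.3 CPM at P7. It led the list at -2.82 ± 0.13, followed by the helicase subunit Mcm3 (-2.77 ± 0.16) and the helicase loading factor Cdc6 (-2.71 ± 0.17). The smallest falls were those of the origin recognition subunit Orc6 (-0.28 ± 0.07) and the GINS subunit Gins4 (-0.43 ± 0.07), chosen as the ends of the list after their values were seen.

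For the replication genes the E2F motif was searched as TTTCCCGC or TTTGGCGC on either strand. A promoter was given for 27 of 34 members (79.4%), too few for a share to be read, and 10 of the 27 held a match. A match stood in 3.01% of the tested genes with a promoter and in 1.63% of all genes in the table. Those of Cdc6, Mcm6, Mcm5 and Pola1 are shown for the match nearest before the listed start, in capitals. The start listed for Cdc6 lies inside the annotated span of the gene, which begins at position 98907709.
Cdc6, chr11:98907986-98908047, plus strand: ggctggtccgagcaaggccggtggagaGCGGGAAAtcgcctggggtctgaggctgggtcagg
Mcm6, chr1:128359718-128359779, minus strand: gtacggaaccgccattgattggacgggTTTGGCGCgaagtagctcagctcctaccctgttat
Mcm5, chr8:75109333-75109394, plus strand: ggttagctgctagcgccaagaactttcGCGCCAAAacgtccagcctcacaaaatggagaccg
Pola1, chrX:93632259-93632320, minus strand: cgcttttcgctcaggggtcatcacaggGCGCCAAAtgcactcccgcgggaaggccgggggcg

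These genes fell 6.55-fold (Cdc6), 6.05-fold (Mcm6, a helicase subunit), 4.04-fold (Mcm5, another) and 4.01-fold (Pola1, the catalytic subunit of polymerase alpha).

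The supply and repair arms of replication fell with it. Of 20 genes of nucleotide and folate-linked synthesis 19 fell (median -0.94), led by the thymidine kinase Tk1 (-2.65 ± 0.15), the serine hydroxymethyltransferase Shmt1 (-2.55 ± 0.15) and the ribonucleotide reductase subunit Rrm2 (-2.45 ± 0.12). The member that rose was Dhodh, a mitochondrial enzyme of pyrimidine synthesis (0.20 ± 0.07). All 12 genes of replication-linked repair fell at least 2-fold (median -2.16), led by Brca1 (-2.86 ± 0.12), Fancd2 (-2.57 ± 0.19) and Rad54l (-2.54 ± 0.17). Repair that resting cells also use changed less. In the list of end joining and base excision repair 11 of 14 genes fell and 0 rose, with a median of -0.50. Parp1, the sensor of strand breaks, fell 2.55-fold and was the 1 member past 2-fold. The other 3, Xrcc4, Polb and Neil1, held their level, meaning that the 95% interval of the log2 fold change lay within 0.32 of 0.

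**Figure D3:**
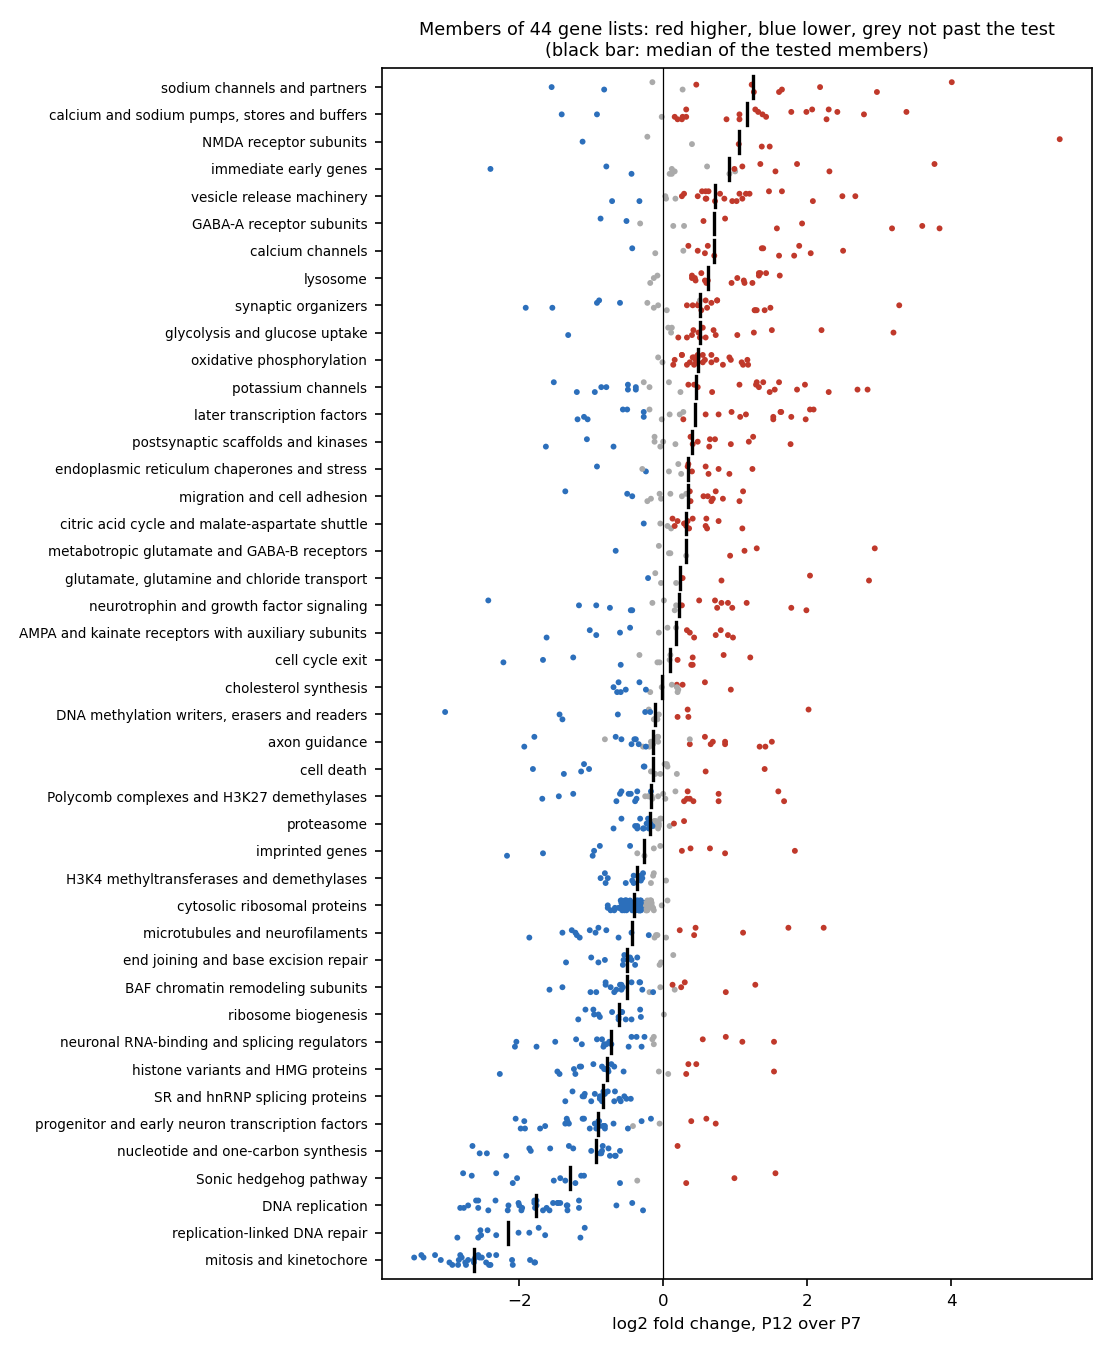
Log2 fold change of P12 over P7 of each tested member of the 44 gene lists, ordered by the list's median (black bar). Red points rose, blue points fell and grey points did not pass the test. Mitosis, repair and replication lie at the bottom with medians of -2.63, -2.16 and -1.77. Sodium channels lie at the top, above pumps, stores and buffers (median 1.17) and NMDA receptor subunits (1.05).

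The Sonic hedgehog pathway, which drives progenitor division, split between effectors and receptors. Of 16 members 12 fell and 3 rose (median -1.29). Gli2, a transcription factor at the end of the pathway, was at 5.73, 5.94, 10.0, 7.13 and 6.22 CPM at P12 and at 48.4, 46.2, 46.0, 46.2 and 56.2 CPM at P7 (log2 -2.78 ± 0.13, adjusted p = 1.6e-13). Gli1, its partner and a target of the pathway, fell by 2.66 ± 0.16, and Ccnd2, the D-type cyclin of progenitors, fell 5.01-fold (102 ± 19.3 CPM at P12, 510 ± 46.5 CPM at P7). The groups did not overlap for any of these effectors.

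The 3 members that rose all encode proteins that bind the ligand at the cell surface. Cdon, a co-receptor, was at 12.5, 13.0, 9.95, 13.4 and 12.1 CPM at P12 and at 4.69, 4.22, 4.46, 3.32 and 3.92 CPM at P7, a rise of 1.56 ± 0.13. Boc, a co-receptor of the same family, rose by 0.99 ± 0.09 (69.7 ± 6.5 CPM at P12, 35.1 ± 5.78 CPM at P7). Ptch1, the receptor that restrains the pathway without ligand, rose by 0.32 ± 0.09, with groups that overlapped. The third co-receptor, Gas1, fell by 1.14 ± 0.14. Hhip, a ligand-binding decoy near 1 CPM, did not pass (log2 -0.36 ± 0.25).

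Genes of cell cycle exit did not rise as a group. Of 15 members 6 rose and 4 fell, with a median of 0.09. Btg1, an antiproliferative factor, led the rises (1.21 ± 0.12, 692 ± 42.3 CPM at P12 and 300 ± 22.8 CPM at P7), followed by Tob2 of the same family (0.84 ± 0.14). Cdkn1b, the inhibitor p27 that granule cell progenitors build up before they stop dividing, held its level at 444 ± 14.6 CPM at P12 and 458 ± 36.4 CPM at P7 (95% interval -0.16 to 0.07). The retinoblastoma relative Rbl1 fell by 2.22 ± 0.16, the inhibitor Cdkn1c by 1.67 ± 0.15, and the inhibitor Cdkn2c fell 2.38-fold. Ccnd3, the D-type cyclin set beside Ccnd2, rose by 0.41 ± 0.07.

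Transcription factors of progenitors and young neurons fell in most cases, 27 of 32 with 3 higher (median -0.90). Beside Atoh1, the largest falls were those of Sox9, a factor of progenitors and glia (-2.05 ± 0.13), and Ebf3, a factor of early neuronal differentiation (-1.93 ± 0.08). Sox9 also stands in the astrocyte list, whose sums overlapped between the ages. The 3 that rose were Barhl2, a homeobox factor of the granule lineage (0.73 ± 0.08), the dominant-negative helix-loop-helix factor Id2 (0.60 ± 0.08) and Neurod2, a relative of Neurod1 (0.39 ± 0.08). Falls in this list were milder for the factors that mark the lineage as a whole, Pax6 at -0.49 ± 0.05, Zic1 at -0.30 ± 0.08 and Zic2 at -0.17 ± 0.07, a call that was lost with DESeq2 size factors or without any of 3 single libraries.

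Later transcription factors leaned the other way, with 14 of 26 higher and 7 lower (median 0.44). Etv1, which granule cells switch on as they become active in the internal layer, was at 370, 335, 285, 345 and 371 CPM at P12 and at 107, 75.5, 84.2, 74.0 and 74.1 CPM at P7 (2.04 ± 0.13, adjusted p = 7.9e-12). Dbp and Nr1d1, output genes of the circadian clock, rose 4.25-fold and 3.95-fold. The time of day of collection is not given in the sources used here, and its part in these values was not tested. Of the nuclear factor I family, known regulators of granule cell maturation, Nfib fell by 1.10 ± 0.10 (502 ± 38.8 CPM at P12, 1080 ± 148 CPM at P7) and Nfia by 1.05 ± 0.08. The other members of the family were chosen after their values were seen: Nfix fell by 0.27 ± 0.05 and Nfic rose by 0.59 ± 0.06.

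Chromatin genes fell more often than they rose, and the RNA of some related subunits moved in opposite directions. Over all genes tested 36.7% fell and 31.5% rose, and the counts for Polycomb and DNA methylation genes lay not far from these shares. Of 30 Polycomb genes and H3K27 demethylases 13 fell and 9 rose (median -0.17). Ezh2, the methyltransferase of dividing cells, was at 27.9, 30.1, 36.6, 33.1 and 31.0 CPM at P12, against 105, 96.1, 94.9, 111 and 104 CPM at P7. Ezh1, its relative in resting cells, was at 54.8, 54.2, 54.8, 53.0 and 57.3 CPM at P12, against 35.4, 34.1, 29.6, 31.9 and 30.0 CPM at P7. Neither pair of groups overlapped, and the log2 fold changes were -1.68 ± 0.10 and 0.77 ± 0.06. Among the chromodomain proteins that read the H3K27me3 mark, Cbx7 and Cbx6 rose by 1.68 ± 0.09 and 1.6 ± 0.07 and Cbx2 fell by 1.45 ± 0.10.

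Of 16 H3K4 methyltransferases and demethylases 12 fell and 0 rose (median -0.36, against -0.03 in the input), none by 2-fold. The demethylase Kdm1a fell by 0.87 ± 0.05 and the demethylase Kdm5b by 0.81 ± 0.10, while the methyltransferase Kmt2a fell by 0.80 ± 0.11. Of 26 subunits of the BAF remodeling complex 18 fell and 5 rose (median -0.50). Smarcc1 fell by 1.58 ± 0.08 and Actl6a, the subunit of progenitors, by 1.4 ± 0.10 (29.4 ± 2.48 CPM at P12, 77.6 ± 3.6 CPM at P7). Actl6b, the subunit that replaces it in neurons, was close to the threshold with overlapping groups (112 ± 4.06 CPM at P12, 102 ± 5.78 CPM at P7, log2 0.13 ± 0.06, adjusted p = 0.048), and it lost the call without any of 7 single libraries. Bcl7b rose by 1.28 ± 0.07.

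Among 16 genes of DNA methylation 6 fell and 4 rose. The maintenance pair fell, Uhrf1 8.17-fold (11, 9.10, 18.6, 14.1 and 12.7 CPM at P12, 118, 92.1, 96.4, 118 and 114 CPM at P7) and Dnmt1 by 1.4 ± 0.09. Gadd45b, a factor linked to active demethylation, rose by 2.02 ± 0.11 and Dnmt3a, the de novo enzyme of neurons, by 0.35 ± 0.10. Of 22 histone variant and high mobility group genes 16 fell and 4 rose (median -0.78), with Hmgb2 lowest at -2.27 ± 0.15 and the histone chaperone Nap1l5 highest at 1.54 ± 0.10. H3f3b, which encodes the replacement histone H3.3, held its level, and H3f3a, the other gene for it, rose by 0.32 ± 0.07.

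RNA processing genes fell broadly. All 21 SR and hnRNP splicing proteins fell (median -0.83), from Hnrnpc (-0.45 ± 0.08) to Hnrnpab (-1.36 ± 0.08, 536 ± 53.4 CPM at P12 and 1374 ± 97.7 CPM at P7). Of 25 neuronal regulators of RNA 18 fell and 4 rose (median -0.72). Ptbp1, the splicing repressor of progenitors, fell by 1.76 ± 0.10, and Ptbp2, which takes its place in young neurons, by 0.82 ± 0.07, neither with overlap. Khdrbs3 and Elavl2 fell by 2.06 ± 0.10 and 2.04 ± 0.10. The 4 that rose were Rbfox1 (1.54 ± 0.09), Mbnl2 (1.10 ± 0.10), Rbfox3, whose product is the neuronal antigen NeuN (0.87 ± 0.08), and Celf4 (0.55 ± 0.13), which are regulators of later neuronal splicing and RNA stability.

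**Figure D4:**
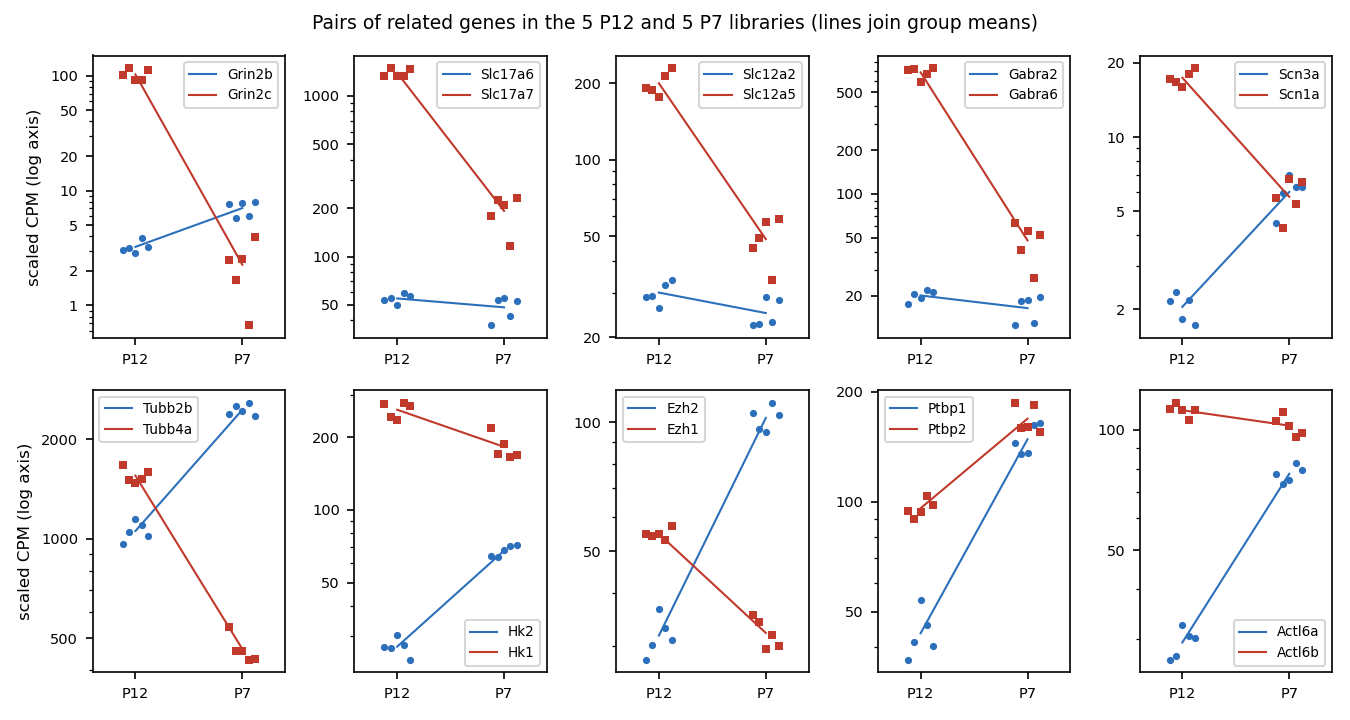
Scaled CPM (log axes) of 10 pairs of related genes in each P12 and P7 library, with lines joining the group means. In the pairs Grin2b and Grin2c, Scn3a and Scn1a, Tubb2b and Tubb4a, Hk2 and Hk1, and Ezh2 and Ezh1 the blue gene fell and the red gene rose. Slc17a6 and Gabra2 did not pass the test, Slc12a2 rose with its partner, Ptbp1 and Ptbp2 both fell, and Actl6a fell while Actl6b was near the threshold.

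The protein synthesis machinery itself fell mildly. Of 76 cytosolic ribosomal protein genes 59 fell and 0 rose, none by 2-fold, with a median of -0.40, and 15 of 16 ribosome biogenesis genes fell (median -0.62, led by nucleolin, Ncl, at -1.18 ± 0.09). In the input the medians were -0.86 and -0.72, lower in total RNA than in the pull-down for the ribosomal proteins. Ribosomal protein genes have many near-identical copies in the genome, which can share reads, and Rpl10a (log2 -0.22 ± 0.14) cannot be told apart from the coding sequence of the transgene. Of 27 proteasome genes 15 fell and 2 rose, with a median of -0.18, and the 15 became 9 without the filter on low counts. Of all 27, called or not, 14 had an interval within the band of 0.32.

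Energy genes rose. Of 28 nuclear genes of oxidative phosphorylation 26 rose and 0 fell, with a median of 0.48, against 0.13 in the input. Cox5b, a subunit of cytochrome oxidase, was at 498, 559, 571, 516 and 531 CPM at P12 and at 232, 248, 240, 224 and 233 CPM at P7 (1.18 ± 0.07, adjusted p = 5.9e-12). The complex I subunits Ndufa4 and Ndufa1 followed with 1.17 ± 0.08 and 1.11 ± 0.08, and Atp5a1 and Ndufs1 held their level. Of 18 genes of the citric acid cycle and the malate-aspartate shuttle 14 rose and 1 fell (median 0.32). The shuttle's cytosolic aminotransferase Got1 rose most (1.10 ± 0.05) and citrate synthase, Cs, was the member that fell (-0.27 ± 0.05).

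In glycolysis 15 of 19 genes rose and 1 fell (median 0.51). The hexokinases diverged, Hk2 with 27, 26.8, 30.3, 27.6 and 24.0 CPM at P12 against 64.5, 63.9, 67.9, 70.8 and 71.8 CPM at P7, and Hk1, the isoform of mature brain, with 275, 242, 235, 278 and 269 CPM at P12 against 218, 171, 188, 166 and 169 CPM at P7. Their log2 fold changes were -1.32 ± 0.11 and 0.51 ± 0.07, and neither overlapped. The neuronal enolase Eno2 rose by 2.20 ± 0.12 and the neuronal glucose transporter Slc2a3 by 1.51 ± 0.09. The aldolase Aldoc rose by 3.20 ± 0.13, but it is also a marker of Purkinje cells and astrocytes, and the part of those cells in its value was not tested. The lactate dehydrogenases Ldha and Ldhb rose alike, by 0.33 ± 0.07 and 0.40 ± 0.05. Pkm, Gapdh and Eno1 held their level, with the reservation that Gapdh and Eno1 have near copies.

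Other organelles divided. Of 21 lysosomal genes 18 rose and 0 fell (median 0.62), led by Psap, the precursor of the saposins (515 ± 36.1 CPM at P12, 167 ± 37.8 CPM at P7, 1.62 ± 0.12), and the hydrolases Ctsd (1.43 ± 0.12) and Gaa (1.35 ± 0.13). Lysosomal genes are active in glia as well, and their part in these values was not tested. Of the glial sums given above, that of myelinating oligodendrocytes was higher at P12 and that of oligodendrocyte precursors lower. The sums of astrocytes with Bergmann glia and of microglia overlapped between the ages, though the microglial means were 22.5% of the input sum at P12 and 11.9% at P7. Of 14 genes of endoplasmic reticulum folding and stress 8 rose and 2 fell (median 0.35), with Dnajb9 (1.24 ± 0.15) and Xbp1 (0.92 ± 0.10) the highest. Of 17 genes of cholesterol synthesis and uptake 7 fell and 4 rose (median -0.02). Fdft1, the squalene synthase, fell by 0.69 ± 0.05 and Sc5d, a late enzyme, rose by 0.94 ± 0.17.

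Of 16 genes of cell death 7 fell and 2 rose (median -0.14). Apaf1, the core of the apoptosome, was at 13.8, 13.8, 15.1, 16.8 and 14.2 CPM at P12, against 42.2, 33.4, 36.9, 42.2 and 37.9 CPM at P7. The groups did not overlap, and its fall was 1.38 ± 0.08 (adjusted p = 5.3e-12). Casp8, the initiator of the receptor route, fell by 1.81 ± 0.24, with a low level of 3.11 CPM at P7. The 2 that rose were both protective relatives of Bcl-2, Bcl2l2 (151 ± 5.58 CPM at P12, 56.7 ± 4.11 CPM at P7, 1.41 ± 0.12) and Bcl2l1 (0.59 ± 0.05). The pore-forming members Bax and Bak1 held their level.

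Receptors, channels and synaptic proteins held many of the large gains. Grin2c, the NMDA receptor subunit of mature granule cells, was at 102, 116, 91.3, 91.1 and 113 CPM in the P12 libraries and at 2.49, 1.67, 2.56, 0.671 and 3.92 CPM in the P7 libraries. The P7 values varied widely around a low mean, and the groups did not overlap, at 45.6-fold (5.51 ± 0.23, adjusted p = 9.9e-14). Without P7 replicate 4, the lowest, the log2 fold change was 5.28. Grin2b, the subunit of young neurons, was at 3.04, 3.16, 2.87, 3.90 and 3.20 CPM at P12 and at 7.68, 5.78, 7.76, 5.97 and 8.01 CPM at P7 (-1.12 ± 0.20). Of the 7 NMDA receptor subunits 4 rose and 1 fell, the others that rose being Grin3a (1.48 ± 0.12), the obligatory subunit Grin1 (1.37 ± 0.15) and Grin2a (1.05 ± 0.21).

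GABA-A receptor subunits changed in the set that granule cells use late. Gabra6, the subunit almost private to cerebellar granule cells in the brain, was at 711, 727, 588, 668 and 729 CPM at P12 and at 63.5, 41.3, 56.0, 26.5 and 52.2 CPM at P7 (14.3-fold, 3.84 ± 0.31, adjusted p = 6.0e-09). Gabrd, its partner in receptors outside the synapse, was at 123, 137, 107, 95.5 and 118 CPM at P12, against 11.7, 7.91, 11.5, 5.33 and 11.1 CPM at P7. P7 replicate 4 was the lowest library for both. Of 12 subunits tested of 13 in the list 7 rose and 2 fell, Gabra5 and Gabra4, with a median of 0.71.

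For the subunits of the immature brain the data decided less. Gabra2 was at 17.5, 20.6, 19.2, 21.8 and 21.1 CPM at P12 and at 12.5, 18.5, 18.6, 12.9 and 19.5 CPM at P7, and its log2 fold change of 0.29 ± 0.15 (95% interval -0.01 to 0.60) did not pass, though it did when only the 10 libraries were fitted. Gabra3 was at 12.8 ± 0.74 CPM at P12 and 15.9 ± 3.37 CPM at P7, which did not pass either (-0.32 ± 0.16, adjusted p = 0.074). At P21 the means of the same mouse line were 3.16 CPM for Gabra2 and 2.58 CPM for Gabra3.

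Glutamate and chloride transporters of mature neurons rose. Slc17a7, the vesicular glutamate transporter of mature granule cells, was at 1330, 1485, 1336, 1335 and 1479 CPM at P12 and at 180, 224, 210, 116 and 231 CPM at P7 (2.86 ± 0.16, adjusted p = 2.4e-12). Slc17a6, the transporter of younger neurons, was at 54.8 ± 3.42 CPM at P12 and 48.3 ± 7.88 CPM at P7 and did not pass (95% interval -0.11 to 0.48). Slc12a5, the exporter that lowers chloride in mature neurons, was at 191, 189, 177, 214 and 229 CPM at P12, against 45.1, 49.1, 57.1, 33.6 and 58.7 CPM at P7 (2.04 ± 0.24). Slc12a2, the importer that keeps it high in young ones, rose slightly with overlapping groups (30.0 ± 2.94 CPM at P12, 24.9 ± 3.26 CPM at P7, log2 0.27 ± 0.11, adjusted p = 0.036), a call that was lost without any of 5 single libraries or with scaling by library size alone. In this list of 8 genes 4 rose and 1, Glud1, fell.

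Other transmitter receptors rose more often than they fell. Grm4, the metabotropic receptor of parallel fibre terminals, rose 7.67-fold (785 ± 52.5 CPM at P12, 102 ± 27.9 CPM at P7), and the GABA-B subunits Gabbr2 and Gabbr1 by 1.30 ± 0.14 and 1.13 ± 0.11, among 4 of 9 members higher and 1 lower. Of 15 genes of AMPA and kainate receptors and their partners 7 rose and 5 fell, with a median of 0.18. The AMPA receptor subunits Gria1, Gria2 and Gria4 rose by 0.97 ± 0.19, 0.90 ± 0.12 and 0.80 ± 0.13, and the auxiliary subunits Cacng4 and Cnih3 fell by 1.62 ± 0.18 and 1.02 ± 0.19.

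Release genes rose almost throughout, 22 of 27 with 2 lower and a median of 0.72. Syt2, a fast calcium sensor of release, was at 84.9, 91.2, 93.7, 98.7 and 114 CPM at P12 and at 12.3, 11, 20.3, 12.7 and 19.8 CPM at P7 (2.67 ± 0.19). The fusion proteins Vamp1 and Snap25 rose by 2.49 ± 0.10 and 2.08 ± 0.09. The 2 that fell were the dynamin Dnm3 (-0.71 ± 0.14) and the syntaxin Stx1a (-0.33 ± 0.10).

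On the receiving side 10 of 18 scaffold and kinase genes rose and 3 fell (median 0.40). Shank3 rose by 1.77 ± 0.07 (316 ± 11.3 CPM at P12, 92.8 ± 7.33 CPM at P7), Camk2b by 1.19 ± 0.07 and Dlgap1 2.37-fold, while the other Shank genes of the list, Shank1 and Shank2, held their level. Homer2 fell by 1.06 ± 0.11. Of 26 synaptic organizers 16 rose and 5 fell (median 0.51). Cbln3, which is made in granule cells and assembles with Cbln1, was at 536, 528, 457, 496 and 549 CPM at P12 and at 61.7, 48.6, 53.1, 46.3 and 54.1 CPM at P7 (3.28 ± 0.19). Cbln1, the organizer that bridges parallel fibres and Purkinje cells, rose by 1.27 ± 0.08 (2218 ± 101 CPM at P12, 920 ± 94.9 CPM at P7). Nrxn3 rose by 1.49 ± 0.15, and among the 5 that fell were Flrt2 (-1.91 ± 0.14) and the latrophilin Adgrl2 (-0.89 ± 0.10).

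Sodium channel genes had the highest median of the 44 lists, with 8 of 12 members higher and 2 lower. Scn2b, an auxiliary subunit, was at 132, 174, 141, 143 and 160.0 CPM at P12 and at 19.8, 20.2, 19, 15.8 and 21 CPM at P7 (7.84-fold, 2.97 ± 0.14, adjusted p = 1.6e-13). The groups did not overlap, and the auxiliary subunit Scn4b rose by 2.18 ± 0.28. Of the pore-forming subunits, Scn3a, the form of young neurons, fell by 1.55 ± 0.16 (2.04 ± 0.26 CPM at P12, 5.98 ± 0.93 CPM at P7) and Scn1a rose by 1.61 ± 0.13 (17.4 ± 1.19 CPM at P12, 5.72 ± 0.99 CPM at P7). The other gene that fell was Ank3, the anchor of the axon initial segment (-0.82 ± 0.06).

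Potassium channels were more mixed, with 17 of 30 genes higher and 9 lower (median 0.46). Kcnk3, a background leak channel of granule cells, was at 174, 190, 170, 177 and 195 CPM at P12 and at 26.2, 28.7, 27.4, 16.5 and 27.6 CPM at P7 (2.84 ± 0.16). Of the G protein-gated channels Kcnj9 rose by 2.70 ± 0.13 and Kcnj6 fell by 1.20 ± 0.10, and the ERG-type channel Kcnh7 fell by 1.52 ± 0.23. Kcnq3 and Kcnq5, subunits of the M-current, fell by 0.79 ± 0.20 and 0.49 ± 0.18. They were chosen after their values were seen, and the call of Kcnq5 was lost without either of 2 single libraries.

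Calcium channels rose in 12 of 15 cases with 1 lower (median 0.71). The T-type subunit Cacna1i rose by 2.50 ± 0.14 (68.5 ± 6.71 CPM at P12, 12.1 ± 3.22 CPM at P7), the auxiliary subunits Cacnb4 and Cacna2d3 by 2.05 ± 0.15 and 1.89 ± 0.12, and Cacnb1 fell by 0.43 ± 0.07. Pumps, exchangers, stores and buffers rose in 21 of 24 cases with 2 lower (median 1.17). Calb2, the calcium buffer calretinin, was at 583, 578, 313, 299 and 412 CPM at P12 and at 47.3, 43.2, 45.8, 30.9 and 42.5 CPM at P7. The P12 values spread widely, with replicates 1 and 2 above the other three, but all exceeded every P7 value (3.38 ± 0.21). Slc8a2, a sodium-calcium exchanger, was at 230, 232, 208, 215 and 243 CPM at P12 and at 26.6, 34.1, 36.3, 27.1 and 38.8 CPM at P7, far apart at 6.94-fold (2.79 ± 0.11).

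Purkinje cells express many of these receptors and channels too, and all 8 Purkinje markers rose in the same libraries. Their part in the gains was not tested gene by gene.

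Among the 12 largest rises at over 10 CPM were genes outside these groups. Gprc5c, an orphan receptor, had the largest, with 32.9, 35.1, 27.4, 27.5 and 34.6 CPM at P12 and 0.734, 0.355, 0.622, 0.318 and 0.942 CPM at P7 (52.4-fold, 5.71 ± 0.17, adjusted p = 4.2e-16). Nab2, a repressor that binds EGR transcription factors, was at 34.2, 36.4, 20.8, 17.7 and 22.8 CPM at P12 and at 1.13, 0.958, 0.988, 1.84 and 1.30 CPM at P7 (4.40 ± 0.21). Replicates 1 and 2 were the highest P12 libraries for Nab2, as for Calb2. Wnt7a, a signal by which granule cells act on mossy fibre endings, rose by 3.83 ± 0.18 (87.8 ± 6.91 CPM at P12, 6.16 ± 1.44 CPM at P7). The other rises were those of Olfm3, a secreted olfactomedin protein (3.84 ± 0.11), Faim2, an inhibitor of Fas-driven death (3.81 ± 0.13), Tmem163, a zinc transporter (3.59 ± 0.13), Cdh15, a cadherin of muscle and granule cells (3.52 ± 0.14), and the cytoskeletal adaptor Kank2 (3.48 ± 0.15).

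Immediate early genes, which neuronal activity or stress induces, went both ways. Of 17 members 7 rose and 3 fell, with a median of 0.92. Egr4 was at 14.7, 15.9, 11, 10.2 and 13.5 CPM at P12 and at 1.21, 0.745, 1.10, 0.600 and 1.06 CPM at P7 (3.77 ± 0.24, adjusted p = 1.8e-11). Egr1 was at 16.7, 21.5, 11.6, 11.2 and 16.8 CPM at P12 and at 3.17, 2.45, 3.88, 3.32 and 2.75 CPM at P7, without overlap. It rose by 2.31 with an SE of 0.83. That SE comes from the fit of all 19 TRAP libraries, in which Egr1 was at 51.0 ± 18.2 CPM at P21. Fos, at 18.8, 29.7, 12.2, 12.1 and 15.2 CPM at P12 against 12.3, 6.35, 11.5, 7.87 and 7.77 CPM at P7, did not pass (0.92 ± 0.68). Fos did pass when only the 10 libraries were fitted. The 3 that fell were Egr2, by 2.40 ± 0.31 at low levels (0.195 CPM at P12, 1.07 CPM at P7), Jun by 0.79 ± 0.15 and Arc by 0.44 ± 0.18, the last with overlapping groups and lost without any of 4 single libraries.

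Genes of neuronal shape turned over. Of 23 genes of microtubules and neurofilaments 13 fell and 6 rose (median -0.44). Dcx, which stabilises microtubules in migrating neurons, was at 196, 167, 185, 214 and 204 CPM at P12, against 779, 616, 733, 712 and 673 CPM at P7 (-1.86 ± 0.10). The beta-tubulin Tubb2b was at 962, 1047, 1152, 1099 and 1021 CPM at P12 and at 2388, 2531, 2441, 2586 and 2354 CPM at P7, and Tubb4a at 1669, 1504, 1479, 1520 and 1597 CPM at P12 and at 542, 459, 456, 431 and 433 CPM at P7. The tubulin genes diverged without overlap, by -1.22 ± 0.10 and 1.74 ± 0.07, and the alpha-tubulin Tuba4a rose by 2.23 ± 0.14. Tubulin genes are alike in sequence, so reads may be shared between them. Map1b and Map2, proteins that bind growing and dendritic microtubules, fell by 1.4 ± 0.13 and 1.27 ± 0.10.

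Guidance genes went both ways, 9 of 29 tested higher and 9 lower, with 11 that did not pass (median -0.14). The netrin receptor Dcc fell by 1.93 ± 0.12 (10.2 ± 1.32 CPM at P12, 39 ± 6.54 CPM at P7) and the repellent ligand Slit2 by 1.79 ± 0.23. The semaphorin co-receptor Plxna1 rose by 1.42 ± 0.10 and Slit3 by 1.34 ± 0.13. Of 20 migration and adhesion genes 10 rose and 3 fell (median 0.34). Cxcr4, the chemokine receptor that keeps progenitors at the surface, fell by 1.36 ± 0.22. Dab1, the adaptor of the reelin receptors, and Pard6a, a polarity protein of migrating granule cells, rose by 1.11 ± 0.09 and 1.06 ± 0.07, and Astn1 and Astn2, the astrotactins of migration along glia, were 0.67 ± 0.11 and 0.83 ± 0.13 higher.

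Of 20 genes of neurotrophin and growth factor signaling 10 rose and 6 fell (median 0.22). Bdnf was at 8.05, 5.76, 4.14, 5.08 and 5.47 CPM at P12 and at 1.65, 1.21, 1.5, 1.52 and 1.22 CPM at P7 (1.99 ± 0.18). The neurotrophin receptor Ngfr, known from progenitors of the outer layer, was at 2.05, 3.73, 3.90, 3.67 and 2.89 CPM at P12 and at 10.6, 20.9, 18, 15.5 and 23.0 CPM at P7 (-2.43 ± 0.19). The receptor Ntrk3 rose by 1.16 ± 0.13 and its ligand Ntf3 by 0.96 ± 0.10. Among 15 imprinted genes tested of 16 in the list, 5 rose and 6 fell (median -0.26). The maternally expressed RNA Meg3 rose by 1.83 ± 0.23 and the paternally expressed zinc finger gene Plagl1 fell by 2.17 ± 0.11. Meg3 was at 66.5 CPM at P12 and 18.7 CPM at P7 in the pull-down, far below the 2670 and 931 CPM of the inputs. Whether its RNA in the pull-down was bound to ribosomes was not tested.

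Stable genes were fewer than changed ones. The 95% interval of the log2 fold change lay within 0.32 of 0 for 2105 genes (14.3%), 330 of which passed the test with a small difference. The 6 with the highest levels, ribosomal and mitochondrial genes left out, were H3f3b, Neurod1, Calm3, a calmodulin gene, Gnas, a G protein subunit, Cfl1, an actin-severing protein, and Ppp2r2c, a phosphatase subunit. Ppp2r2c was at 1706 ± 85.8 CPM at P12 and 1701 ± 63.7 CPM at P7 (95% interval -0.11 to 0.12). For 2916 genes the data decided neither way, since they did not pass and their interval reached outside the band.

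Gene length went along with direction. Among 14737 tested genes with a genomic span in RefSeq (99.9%), split into 10 groups of equal size by span, the first, of 0.054 to 4.12 kb, had 34.3% higher and 26.5% lower at P12. The ninth group, of 75.1 to 136 kb, had 26.1% higher and 48.9% lower, with a median log2 fold change of -0.23 against 0.08 in the first. In the last group, from 137 kb up, the shares were 28.5% and 42.8%. Mean level also differed between the groups, from a median of 10.3 CPM in the first to 28.5 CPM in the eighth, and its part in these shares was not tested.

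**Figure D5:**
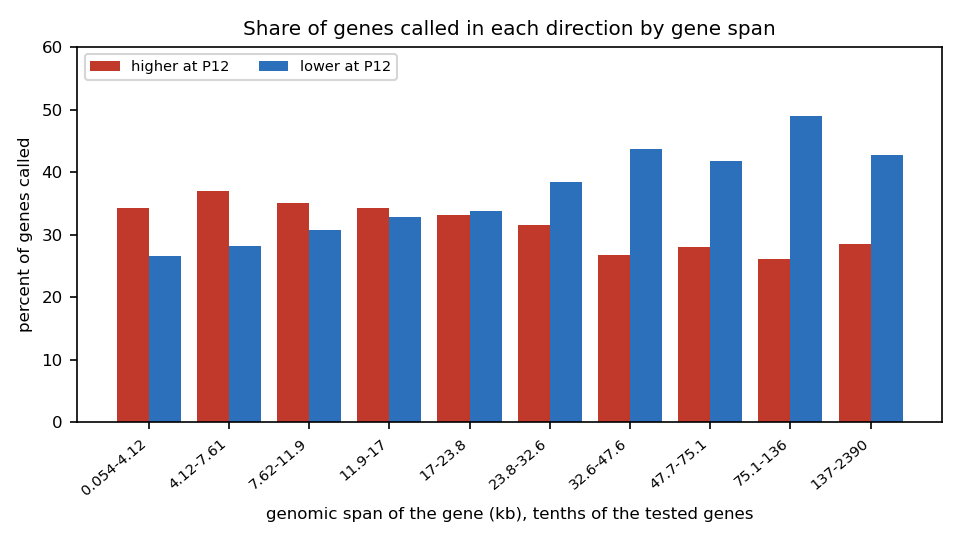
Percent of the tested genes called higher (red) and lower (blue) at P12 in each of 10 equal groups of genes ordered by genomic span (kb). Higher calls outnumber lower ones in the 4 groups with the shortest spans, and lower calls outnumber higher ones in the others.

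The inputs, total cerebellar RNA with 1 library at each age, gave the same direction for most of the larger changes. Over 10571 genes with a mean input level of at least 10 CPM the log2 differences of pull-down and input had a Pearson correlation of 0.874 across genes, which are not independent replicates and share the age contrast. Of 872 such genes that rose at least 2-fold in the pull-down 868 were higher in the P12 input (99.5%), with median differences of 1.39 in the pull-down and 1.08 in the input. Of 849 that fell at least 2-fold 834 were lower (98.2%), with medians of -1.4 in the pull-down and -1.04 in the input. Of 210 genes named here that passed the test, 8 had an input difference of the other sign. Kmt2a, which fell in the pull-down, was at 237 CPM in the P12 input and 158 CPM in the P7 input, and Ank3, which fell too, at 329 CPM in the P12 input and 268 CPM in the P7 input. Ccnd3 and Ldha, which rose in the pull-down, were lower in the P12 input by 0.28 and 0.35 on the log2 scale. The others were Actl6b, Arc, Cnih3 and H3f3a. Grin2b, which fell by 1.12 in the pull-down, was at 12.2 CPM in the P12 input and 12.3 CPM in the P7 input.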

How the data were processed

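Ribosome-bound polyadenylated RNA of 10 libraries was compared, 5 from P12 and 5 from P7, grouped by the labels. The authors deposited estimated counts per gene as whole numbers. Salmon 0.8.2 and the build mm10 stand in the submitters' processing notes with no role given, and the annotation, the summing to genes and any filter are not given in the sources used here. Gene symbols, spans and promoters came from RefSeq tables, the promoters of GRCm38.p6. Of 24100 gene IDs 24045 matched a symbol.

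The counts were tested with the quasi-likelihood test of edgeR 4.0.16 (robust, TMM scaling, R 4.3.3, with limma 3.58.1). The fit held all 19 TRAP libraries so that they share one estimate of spread, and its contrast was P12 minus P7. Beside the 10 compared, these were 5 P21 libraries of the same mouse line and 4 P7 libraries of another line, Math1-bacTRAP. The added libraries also entered the TMM scaling and the filter on low counts. Genes passed a minimum count of 10 and a total of 15 (filterByExpr), which left 14759, and p-values were adjusted over all of them by the Benjamini-Hochberg method with a threshold of 0.05. The SE is the size of the log2 fold change over the root of the F statistic. Inputs were scaled by library size, with 1 CPM added before logs. The method was tested on simulated data. DESeq2 1.42.0, other scalings, other sample sets, no filter, a replicate block and leaving out each library were the alternatives. Depth of 22.5 to 38.5 M counts limits what can be seen for genes under about 1 CPM.

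Members and lists were chosen with earlier results of these data known. Named genes were the anchors Neurod1, Atoh1, Mki67 and Gabra6, the 12 largest rises and 12 largest falls at 10 CPM or more, up to 3 rises and 3 falls in each list at 1 CPM or more, up to 2 members of each cell type list, preset exchange pairs and the 6 highest genes that held their level. Some of these genes are not reported here. Genes outside this rule were chosen after their values were seen: those shown for their promoters or named for lacking the letters, those named as held level, as the ends of a list or as not called, Eomes, Gas1, Pax6, Zic1, Zic2, H3f3a, Celf4, Rpl10a, Grin2a, Gabra5, Egr2, Astn1, Ntf3 and the Nfi and Kcnq genes named above. Gabrg3, Robo3, Dlk1 and Aif1 were under the count filter.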

Additional observations from a re-analysis of the deposited data

Results flagged for a closer look

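A library far from the other 4 of its age was looked for in 488 groups of 5 (gene by age, and summed markers), with Dixon's critical value of 0.71. It was found in 22 (4.51%), and chance gives about 1 in 20. The values are scaled CPM, and the range of the other libraries of that age follows each.

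Single P12 libraries stood apart for 10 genes. Replicate 3 was high for Gli1 at 7.47 (others 3.15 to 4.34), Casp8 at 1.36 (0.667 to 0.867), Cxcr4 at 3 (1.52 to 1.82), Nuf2 at 11.9 (7.94 to 9.03) and Scn4b at 5.63 (3.13 to 3.75). Replicate 1 was high for Eomes at 98.8 (72.8 to 79.1) and Nap1l5 at 427 (351 to 369). Replicate 5 was low for Kcnq5 at 26 (35.1 to 38.1) and Orc6 at 28.2 (31.1 to 31.8), and replicate 2 was high for Ntf3 at 53.1 (43.9 to 45.1).

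Single P7 libraries stood apart for the others. Replicate 4 was high for Birc5 at 68.2 (others 49.8 to 53.4), Ccnb2 at 63.3 (50 to 53.1) and Hnrnpab at 1547 (1321 to 1351), and low for Grm4 at 52.6 (112 to 120.0) and Kcnk3 at 16.5 (26.2 to 28.7). Replicate 1 was high for Got1 at 75.1 (62.3 to 65.5), Mbnl2 at 199 (129 to 145) and Tubb4a at 542 (431 to 459). Replicate 2 was low for Fancd2 at 3.97 (5.89 to 6.47) and Jun at 105 (117 to 122). Replicate 5 was high for Gli2 at 56.2 (46.0 to 48.4) and low for H3f3a at 2528 (2905 to 3050).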

How the results depend on the processing

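No named gene reversed its direction under the alternatives run, but the balance of higher to lower calls did turn. At 2-fold there were 1390 rises and 1526 falls, against 1436 and 1355 with the 15 libraries of the mouse line, 1499 and 1403 with DESeq2 size factors, 1492 and 1403 with the Wald test and 1603 and 1580 without the filter. It did not turn with library size alone or without single libraries. Without each library in turn the count of genes higher at P12 was 4434 to 4535 and of genes lower 5191 to 5327. With DESeq2's Wald test the counts were 5089 and 5082, so that balance turned as well. Of 59 counts 55 stayed within 1.5 times their value under every alternative. Genes that held their level numbered 5427 with a band of 0.58 on the log2 scale, against 2105. Proteasome genes called lower numbered 9 without the filter, against 15. The 1 microglial call became 0 with scaling by library size alone and 0 to 2 without single libraries (2 without P7 replicate 5, 0 without P12 replicate 1, 2 or 5 or P7 replicate 1 or 4), and vascular calls were 3 to 6 against 5, with 3 without P12 replicate 5, P7 replicate 1 or P7 replicate 4. The share of calls that were higher lay between 44.4% and 50% over the scalings, against 46.2%, and the median of all genes shifted by -0.02 to 0.048. Calls or misses changed for 19 of 308 named genes.

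Beside the microglial one, calls lost without single libraries were those of Slc12a2 (P12 replicates 4 and 5, P7 replicates 1, 2 and 4), Actl6b (P12 replicates 1, 2, 3 and 5, P7 replicates 3, 4 and 5), Arc (P12 replicates 1 and 2, P7 replicates 1 and 5), Kcnq5 (replicate 5 of either age), Zic2 (P12 replicates 2 and 3, P7 replicate 1) and 3 genes not described above, Rorb (all but P12 replicate 2 and P7 replicate 1), Sqle (P12 replicates 4 and 5, P7 replicates 1 and 4) and Asns (P12 replicate 3, P7 replicates 1 and 5). The cause was not tested.

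Replicate numbers of the 2 ages did not pair the libraries, with correlations of same-numbered deviations from -0.413 to 0.197. A fit with the replicate number as a block on the 10 libraries called 5043 genes higher and 5292 lower, and 1370 and 1350 at 2-fold.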
